A study of Homo sapiens with 4 samples.

Results

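The 10 genes described here belong to TNF receptor signalling and were measured in MHCC97H cells with and without knockdown of UBXN1. They are the receptor TNFRSF1A, the adaptors TRAF1, TRAF2 and TRAF3, the kinase RIPK1, the inhibitor of apoptosis (IAP) genes BIRC2, BIRC3 and XIAP, the deubiquitinase CYLD and the caspase regulator CFLAR. These 10 genes were chosen by name from 61541 gene IDs in the table, all 10 were found, and all 10 passed the filter on low counts, as did 16863 gene IDs in all.

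MHCC97H is a human hepatocellular carcinoma cell line. The comparison was between 2 libraries of cells carrying a control shRNA (shCon) and 2 libraries of cells carrying an shRNA against UBXN1 (shUBXN1), with no other treatment named in the labels. The study's methods describe lentiviral pLKO.1 vectors, and neither the labels nor the methods tie these libraries to 1 of the UBXN1 shRNAs. Nothing in the labels says that the replicates came from separate cultures, so the p-values measure the spread between these libraries, which may be technical. For each gene, that spread was estimated partly from the other genes.

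TNF bound to TNFRSF1A recruits TRADD, RIPK1 and TRAF2, and TRAF2 brings in the ubiquitin ligases encoded by BIRC2 and BIRC3. The ubiquitin chains laid down there hold the kinases that release NF-kappaB, CYLD takes such chains off, and CFLAR restrains CASP8 when the complex turns to cell death. XIAP binds and inhibits caspases further downstream, and BIRC3, TRAF1, CFLAR and CYLD are known from other work as genes that NF-kappaB can induce.

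UBXN1 itself had 67.1 and 77.3 CPM (counts per 1000000 counts of the library) in the shCon libraries and 16.8 and 18.5 CPM in the shUBXN1 libraries, a log2 fold change of -2.03 (SE 0.0963, adjusted p = 9.98e-10, edgeR quasi-likelihood test). All adjusted p-values are Benjamini-Hochberg values over the 16863 genes tested. The libraries held 23373700 to 27380508 counts, and the share from mitochondrial genes was 5.28% and 5.59% in shCon against 7.43% and 8.27% in shUBXN1. Of 11 markers of a liver cancer line, 10 passed the filter, 2 were higher (KRT18 and SERPINA1) and 6 lower in shUBXN1, and GPC3 was at 0 in all 4 libraries. KRT8 lay between 2330 and 3467 CPM, HNF4A between 46.9 and 61.8 CPM, and ALB at 18.0 and 17.2 CPM in shCon and 4.20 and 4.78 CPM in shUBXN1. The summed level of the 11 was 4412 and 4581 CPM in shCon and 3471 and 4064 CPM in shUBXN1. Among markers of other cell types, 4 of 8 immune genes passed the filter, with CD3E at 0 in all libraries and a summed level of 92.7 to 97.3 CPM in shCon and 77.7 to 80.2 CPM in shUBXN1. For the 4 endothelial genes, of which 3 passed the filter, the sum was 48.4 to 49.9 CPM in shCon and 92.6 to 99.5 CPM in shUBXN1. Most of that difference was KDR (14.6 and 15.8 CPM in shCon, 48.2 and 56.6 CPM in shUBXN1). PECAM1 had 33.4 and 33.2 CPM in shCon and 43.0 and 41.9 CPM in shUBXN1, and CDH5 went from 3 and 6 reads to 0 and 0. For the 6 fibroblast genes, again with 3 past the filter, the sum was 33.3 to 33.8 CPM in shCon and 17.3 to 19.8 CPM in shUBXN1. Most of that sum was LUM, while COL1A1 was higher in shUBXN1 (0.375 and 0.170 CPM in shCon, 2.34 and 2.52 CPM in shUBXN1). The part of these differences in the results below was not tested.

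Promoters of the members were searched for the kappaB consensus, the sequence bound by NF-kappaB, because several members are known targets of that factor. Windows ran from 250 bases before to 50 bases after each RefSeq transcript start on GRCh38.p14, and both strands were read. A match was found in 4 of the 10 members, against 5.91% of 35116 promoters, counting each annotated start, and 7.09% of 27305 genes. Because most members have several starts, the members were also counted by start, and 5 of their 22 starts held a match. Known targets are among the members, so a share above that of all genes could be expected from the choice of the list. Neither this share nor a link between a match and a change in level was tested. The lines below give 30 bases around each match on the strand of the gene, 5′ to 3′, all on the plus strand of the chromosome, with the match in capitals. The matches of BIRC3 and the upstream one of CYLD read as the consensus on the opposite strand.
BIRC3, chr11:102317275-102317304, match 199 bases before the start: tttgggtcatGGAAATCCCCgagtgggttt
BIRC3, chr11:102317339-102317368, match 135 bases before the start: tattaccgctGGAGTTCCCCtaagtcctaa
TRAF3, chr14:102777406-102777435, match 33 bases before the start: cgggcgcgccGGGGATTTCCagcgcgcgag
CYLD, chr16:50741887-50741916, match 189 bases before its start: ttgacagagcGGAAAGTCCCttcggccggc
CYLD, chr16:50742405-50742434, match at another annotated start: cccccccaccGGGGCTTCCCcatcccccga
CFLAR, chr2:201118609-201118638, match 97 bases before its start: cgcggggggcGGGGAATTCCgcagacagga
A match is a description of these letters, and no binding was measured here. BIRC3, CYLD and CFLAR rose in shUBXN1, as described below, and TRAF3, which also had a match, did not pass the test. TRAF1 and BIRC2 rose with no match in these windows, which says only that the letters are not there.

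After UBXN1 knockdown, BIRC3, TRAF1, CYLD, BIRC2 and CFLAR rose, TNFRSF1A, XIAP and RIPK1 fell, and TRAF2 and TRAF3 did not pass the test. The rise was largest for BIRC3, at 3.71-fold, followed by TRAF1 at 2.56-fold and CYLD at 2.14-fold. Of the 10 members, 5 were higher and 3 lower at an adjusted p under 0.05, where 28.0% of all genes tested were higher and 28.2% were lower, 56.2% in either direction. With libraries scaled by total counts in place of edgeR's trimmed mean of M values (TMM), 6 members were higher and 2 lower. At the study's thresholds, a doubling or halving with an unadjusted p under 0.05, 3 members were called by the edgeR test. All 3 were higher, BIRC3, TRAF1 and CYLD, against 17.9% of all genes (11.8% higher and 6.09% lower). The study names limma on TPM, and with limma on log2(TPM + 1) 2 members were called, with TRAF1 at 0.90 on the log2 scale. By edgeR, the median log2 fold change was 0.31 over the members and 0.016 over all genes tested. In 9 of the 10 members the groups did not overlap in CPM, as in 78.0% of all genes tested (39.4% higher and 38.6% lower). In these bulk libraries, fewer cells of a kind and less RNA per cell cannot be told apart.

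**Figure D1:**
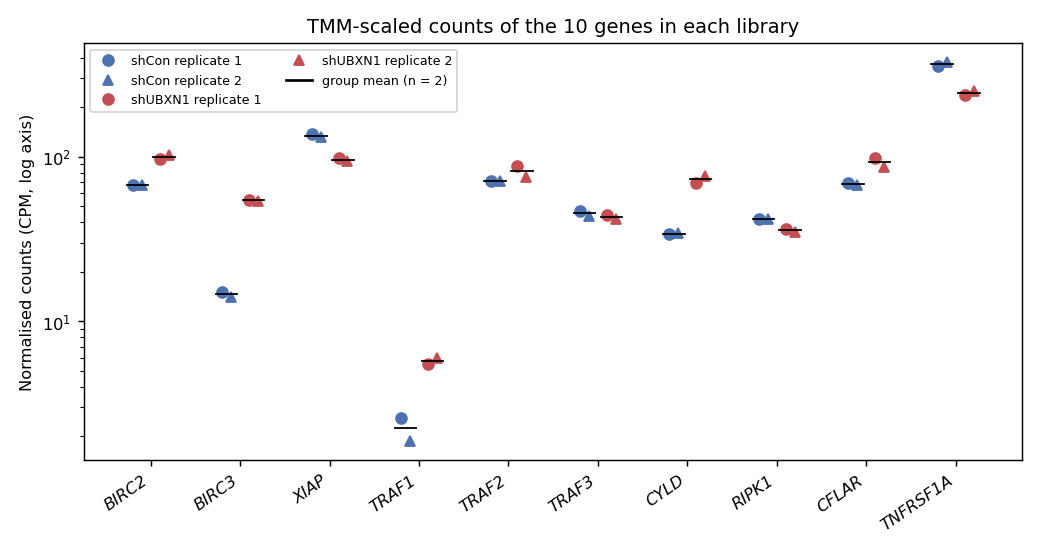
Level of each of the 10 genes in each library, in CPM on a log axis, with points for the 2 shCon and the 2 shUBXN1 libraries. BIRC3 sat at 14.1 and 15.1 CPM in shCon and at 53.7 and 54.95 CPM in shUBXN1, while the points of TRAF3 overlapped between the groups.

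**Figure D2:**
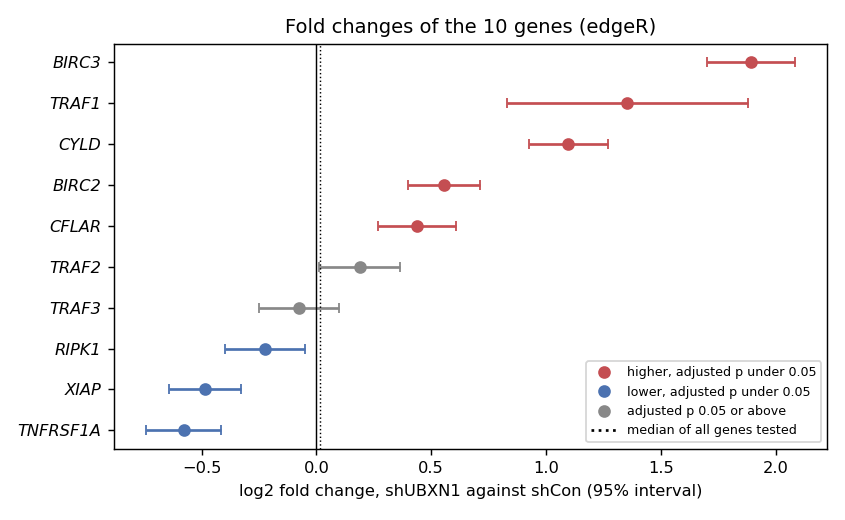
Log2 fold change of shUBXN1 against shCon for the 10 genes, with bars for the 95% confidence interval derived from edgeR's quasi-likelihood test. Only the interval of TRAF3, -0.25 to 0.10, included 0.

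TNFRSF1A (ENSG00000067182, chromosome 12, 6328757 to 6342114, minus strand, GRCh38) encodes the main receptor for soluble TNF. It had 357 and 375 CPM in the shCon libraries and 238 and 253 CPM in the shUBXN1 libraries. Both shUBXN1 libraries were below both shCon libraries. It fell by 0.58 on the log2 scale (SE 0.0758, 95% confidence interval -0.74 to -0.42, adjusted p = 1.66e-05, edgeR quasi-likelihood test). Per length, in TPM (counts divided by gene length and scaled to 1000000 a library), it was the most abundant member in both groups, at 338 ± 4.91 TPM in shCon and 236 ± 2.30 TPM in shUBXN1 (SD, n = 2). TNFRSF1B, the second TNF receptor, which was chosen here after its values were seen, had 7.54 and 8.26 CPM in shCon and 22.9 and 23.2 CPM in shUBXN1. It rose by 1.55 on the log2 scale (SE 0.119, adjusted p = 9.02e-08, edgeR quasi-likelihood test). The ratio of TNFRSF1A to TNFRSF1B in TPM was 80.3 and 77.1 in the shCon libraries and 17.6 and 18.5 in the shUBXN1 libraries (40.8 to 42.5 and 9.32 to 9.79 with the length of all annotated exons of a gene joined, the exon-union length, in place of the deposited length, a setting chosen after the data were seen). TNFRSF1A remained the more abundant of the pair in every library.

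The 3 TRAF members are adaptors that join receptors of the TNF family to ubiquitin ligases and kinases. TRAF1 (ENSG00000056558, chromosome 9, 120902393 to 120929173, minus strand) lacks the RING domain found in the other TRAFs and pairs with TRAF2. It was the least abundant member, with 2.59 and 1.87 CPM in shCon, from 69 and 44 reads, and 5.50 and 5.98 CPM in shUBXN1, from 136 and 140 reads. The groups did not overlap, and the shCon libraries lay further apart from each other than the shUBXN1 libraries did. TRAF1 rose by 1.35 on the log2 scale (SE 0.245, 95% confidence interval 0.83 to 1.88, adjusted p = 3.02e-04, edgeR quasi-likelihood test), with the widest interval of the 10.

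TRAF2 (ENSG00000127191, chromosome 9, 136881912 to 136926607, plus strand), which carries BIRC2 and BIRC3 into the receptor complex, had 71.6 and 71.3 CPM in shCon and 87.5 and 75.5 CPM in shUBXN1. Both shUBXN1 libraries were above the shCon libraries, with replicate 1 well above replicate 2. The log2 fold change of 0.19 (SE 0.0825, 95% confidence interval 0.01 to 0.37) had an adjusted p of 0.0647 (edgeR quasi-likelihood test). It was 0.29 without shUBXN1 replicate 2, with an adjusted p of 9.81e-04, and 0.07 without shUBXN1 replicate 1, with an adjusted p of 0.417. With the trend on GC content removed the log2 fold change was 0.05. TRAF3 (ENSG00000131323, chromosome 14, 102777449 to 102911500, plus strand), which with TRAF2 and the IAP ligases keeps the kinase MAP3K14 low in resting cells, had 47.0 and 43.8 CPM in shCon and 44.4 and 41.8 CPM in shUBXN1. The groups overlapped, and the log2 fold change of -0.07 (95% confidence interval -0.25 to 0.10) had an adjusted p of 0.46 (edgeR quasi-likelihood test). The ratio of TRAF2 to TRAF1 in TPM was 52.6 and 72.3 in shCon and 30.2 and 24.0 in shUBXN1 (33.8 to 46.5 and 15.4 to 19.4 with exon-union lengths), so TRAF2 stayed far above TRAF1 in every library.

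RIPK1 (ENSG00000137275, chromosome 6, 3063824 to 3115187, plus strand) encodes the kinase on which the receptor complex builds its ubiquitin chains. It had 42.0 and 41.6 CPM in shCon and 36.7 and 34.9 CPM in shUBXN1. The groups did not overlap, and the decrease was the smallest among the members that passed the test. RIPK1 fell by 0.22 on the log2 scale (SE 0.0816, 95% confidence interval -0.40 to -0.05, adjusted p = 0.0305, edgeR quasi-likelihood test). That call was lost without shCon replicate 1 (-0.22, adjusted p = 0.162), without shCon replicate 2 (-0.23, adjusted p = 0.142) and without shUBXN1 replicate 2 (-0.19, adjusted p = 0.0696), by the same edgeR test. It was also lost with DESeq2 (adjusted p = 0.102), with limma on log2(TPM + 1) (adjusted p = 0.199) and with total count scaling (adjusted p = 0.172).

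The IAP genes moved in both directions. BIRC3 (ENSG00000023445) and BIRC2 (ENSG00000110330), which encode closely related ubiquitin ligases, are neighbours on chromosome 11, at 102317484 to 102339403 and 102347211 to 102378670 on the plus strand, with 7807 bases between them. BIRC3 had 15.1 and 14.1 CPM in shCon and 54.95 and 53.7 CPM in shUBXN1. Both shUBXN1 libraries stood far above both shCon libraries, and the libraries within each group were close together. BIRC3 rose by 1.89 on the log2 scale (SE 0.0899, 95% confidence interval 1.70 to 2.08, adjusted p = 1.02e-09, edgeR quasi-likelihood test). BIRC2 had 67.5 CPM in both shCon libraries and 96.4 and 102 CPM in the shUBXN1 libraries. It was higher in both shUBXN1 libraries, and rose by 0.56 on the log2 scale (SE 0.0735, 95% confidence interval 0.40 to 0.71, adjusted p = 1.78e-05, edgeR quasi-likelihood test). The confidence intervals of the neighbouring genes did not meet, and the difference between their fold changes was not tested.

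XIAP (ENSG00000101966, chromosome X, 123859712 to 123913972, plus strand), the IAP that inhibits caspases by direct binding, had 138 and 132 CPM in shCon and 97.9 and 94.6 CPM in shUBXN1. Both shUBXN1 libraries were lower than both shCon libraries. XIAP fell by 0.49 on the log2 scale (SE 0.0723, 95% confidence interval -0.64 to -0.33, adjusted p = 5.34e-05, edgeR quasi-likelihood test). Its near-identical copies, BIRC8 and the XIAP pseudogenes, held 2, 3, 5 and 3 reads in all in the 4 libraries. Of the summed TPM of BIRC2, BIRC3 and XIAP, the share of XIAP was 44.8% and 44.1% in shCon and 24.6% and 23.4% in shUBXN1. BIRC3 held 8.73% and 8.36% in shCon and 24.4% and 23.5% in shUBXN1, and BIRC2 held 46.5% and 47.6% in shCon and 51.0% and 53.2% in shUBXN1. The sum was 72.8 and 68.9 TPM in shCon and 101 and 94.99 TPM in shUBXN1. BIRC3 was far below XIAP in shCon, and in shUBXN1 their ranges overlapped with the deposited lengths. With exon-union lengths the share of BIRC3 was 6.43% and 6.15% in shCon and 18.8% and 18.1% in shUBXN1, and BIRC3 stayed below XIAP in every library. With 2 libraries a group, an exact permutation test of a single ratio or share cannot give a p below 0.333, so these are given as values.

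**Figure D3:**
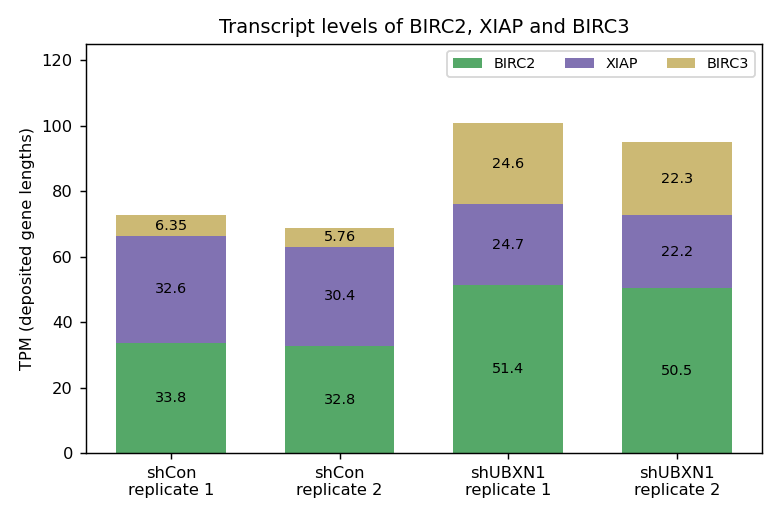
Level of BIRC2, BIRC3 and XIAP in each library in TPM, stacked so that the height of a bar is their sum. The XIAP part was 44.8% and 44.1% of the bar in shCon and 24.6% and 23.4% in shUBXN1, and the BIRC3 part grew from 8.73% and 8.36% to 24.4% and 23.5%.

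CYLD (ENSG00000083799, chromosome 16, 50742050 to 50801935, plus strand) encodes the enzyme that strips ubiquitin chains from RIPK1 and other proteins of the complex. It had 33.8 and 34.4 CPM in shCon and 69.7 and 76.2 CPM in shUBXN1. The groups were well apart, and the shCon libraries differed little. CYLD rose by 1.10 on the log2 scale (SE 0.0803, 95% confidence interval 0.93 to 1.27, adjusted p = 5.55e-08, edgeR quasi-likelihood test). The ratio of CYLD to RIPK1 in TPM was 0.385 and 0.396 in shCon and 0.912 and 1.05 in shUBXN1. With exon-union lengths it was 0.756 and 0.777 in shCon and 1.79 and 2.05 in shUBXN1, so which of the pair was the more abundant in shUBXN1 depends on the length used.

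CFLAR (ENSG00000003402, chromosome 2, 201116154 to 201176687, plus strand) encodes a relative of CASP8 without protease activity. It had 69.3 and 67.5 CPM in shCon and 98.5 and 86.9 CPM in shUBXN1. Both shUBXN1 libraries were above the shCon libraries, with shUBXN1 replicate 1 the highest. CFLAR rose by 0.44 on the log2 scale (SE 0.0800, 95% confidence interval 0.27 to 0.61, adjusted p = 3.19e-04, edgeR quasi-likelihood test). CASP8 itself had a log2 fold change of 0.14 that missed the threshold (adjusted p = 0.153, edgeR quasi-likelihood test). CASP8 was higher past the threshold in 3 of 15 other settings, and its log2 fold change ranged from 0.086 to 0.22. The ratio of CFLAR to CASP8 in TPM was 2.06 and 1.92 in shCon and 2.70 and 2.21 in shUBXN1. With exon-union lengths CFLAR lay below CASP8, with ratios of 0.449 to 0.481 for shCon and 0.518 to 0.630 for shUBXN1. CFLAR shares 6.62% of its exon bases with IMPDH1P10 and 3.46% with CFLAR-AS1, which held 4 to 10 reads a library.

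Compared per length within a group, the order of the members in shCon was TNFRSF1A, CFLAR at 64.5 ± 2.53 TPM, TRAF2 at 63.3 ± 1.53 TPM, BIRC2 at 33.3 ± 0.720 TPM, XIAP at 31.5 ± 1.57 TPM, RIPK1 at 20.5 ± 0.587 TPM, TRAF3 at 11.7 ± 0.820 TPM, CYLD at 8.005 ± 0.0699 TPM, BIRC3 at 6.05 ± 0.416 TPM and TRAF1 at 1.04 ± 0.258 TPM (SD, n = 2 for each). In that order, CFLAR and TRAF2 had overlapping ranges. In shUBXN1 the order was TNFRSF1A, CFLAR at 91.2 ± 12.9 TPM, TRAF2 at 75.4 ± 11.8 TPM, BIRC2 at 51.0 ± 0.632 TPM, XIAP at 23.5 ± 1.81 TPM, BIRC3 at 23.4 ± 1.62 TPM, RIPK1 at 18.3 ± 1.58 TPM, CYLD at 17.8 ± 0.180 TPM, TRAF3 at 11.6 ± 1.10 TPM and TRAF1 at 2.78 ± 0.0200 TPM. Here CFLAR and TRAF2, XIAP and BIRC3, and RIPK1 and CYLD were pairs whose ranges overlapped with the deposited lengths. BIRC3 and CYLD were below TRAF3 in shCon and above it in shUBXN1, with either length. Several other places depend on the length, above all that of CFLAR, for which the table gives 2128 bases and the union of annotated exons is 22478 bases. With exon-union lengths CFLAR stood at 10.6 TPM in shCon and 14.5 TPM in shUBXN1, in place 7 of the order in both groups. TRAF3, at 13.3 TPM, was then above RIPK1, at 11.99 TPM, in shCon. In shUBXN1 RIPK1 went to place 9, at 10.3 TPM, and CYLD to place 6, at 19.7 TPM, and the ranges of XIAP (35.5 ± 3.10 TPM) and BIRC3 (25.5 ± 2.01 TPM; SD, n = 2) did not overlap.

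The genes whose profile over the 4 libraries was most like that of BIRC3 were PPP1R3B, a glycogen-targeting subunit of protein phosphatase, C1R, a complement protease, and LAMB2, a laminin chain. The measure was the root mean square distance between log2 CPM values centred on each gene's mean, and it was 0.0187, 0.0226 and 0.0296 in that order. Their log2 fold changes were 1.88, 1.91 and 1.93. C1R shares 11.6% of its exon bases with C1RL on the same strand. In all, 42 of 13510 protein-coding genes lay within 0.1 of BIRC3 by this measure.

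Other genes of the pathway were counted from a list of 96 arranged by role, of which 81 passed the low-count filter. Of these, 29 were higher, 22 were lower and 30 did not pass the test. Over all genes tested, 28.0% were higher and 28.2% lower, shares that also apply beside the counts by role below. Whether the list or any role differed from these shares was not tested. With total count scaling, 33 of the 81 pathway genes were higher and 16 lower. Their median log2 fold change was 0.06, against 0.31 over the 10 members and 0.016 over all genes tested.

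Among the 13 ligands, 5 passed the filter, of which 2 were higher and 0 lower by edgeR (2 higher and 0 lower at an unadjusted p under 0.05, 1 and 0 by DESeq2). TNF itself held 0 and 1 reads in shCon and 3 and 3 in shUBXN1, and LTA and CD40LG held 0 reads in every library. A count of 0 allows up to 3 reads, so a change in these ligands was not detectable at this depth. TNFSF12 rose by 1.25 and TNFSF13 by 0.75 on the log2 scale (adjusted p = 0.00654 and 0.0317, edgeR quasi-likelihood test), both with few reads. Without shCon replicate 1 these were 0.99 (adjusted p = 0.0633) and 0.35 (adjusted p = 0.325), and without shUBXN1 replicate 2 TNFSF13 was at 0.57 (adjusted p = 0.116). Their reads are uncertain, since TNFSF12 shares 12.1% and TNFSF13 55.5% of its exon bases with the read-through gene TNFSF12-TNFSF13.

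Of the 17 other receptors, 12 passed the filter, 6 were higher and 3 lower. The 3 that were lower are named here after their values were seen. TNFRSF21 had 136 and 130 CPM in shCon and 54.3 and 59.9 CPM in shUBXN1, a log2 fold change of -1.22 (adjusted p = 1.5e-08, edgeR quasi-likelihood test). TNFRSF12A was at -0.23 and TNFRSF10A at -0.22 (adjusted p = 0.02 and 0.0477, same test). TNFRSF14, the receptor for TNFSF14, had 11.7 and 13.2 CPM in shCon and 50.9 and 39.8 CPM in shUBXN1, and rose by 1.87 on the log2 scale. It shares 13.3% of its exon bases with TNFRSF14-AS1 on the opposite strand, which also held more reads in shUBXN1 (51.9 and 40.7 against 247 and 157). The death receptor FAS went from 1.31 and 1.58 CPM to 4.32 and 4.19 CPM, a log2 fold change of 1.56, which was 0.39 with limma on log2(TPM + 1) (adjusted p = 0.032). TNFRSF25 and TNFRSF9 had under 0.5 CPM in both shCon libraries and log2 fold changes of 2.84 and 2.17, which were 1.47 and 0.53 on that scale. Both passed the low-count filter through their shUBXN1 libraries, so they could be called only as higher. They are counted among the 6 higher receptors and the 29 higher pathway genes.

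Among the 9 other BIR-domain proteins and IAP antagonists, 8 passed the filter, 5 were higher and 2 lower. BIRC7, a further IAP, had 12.1 and 8.64 CPM in shCon and 118 and 95.04 CPM in shUBXN1. Its log2 fold change was 3.35 (SE 0.136, adjusted p = 2.19e-10, edgeR quasi-likelihood test), a larger rise than that of any of the 10 members. XAF1, an antagonist of XIAP, rose by 1.32 (0.75 with limma on log2(TPM + 1)) and HTRA2, a mitochondrial protease that can bind IAPs, by 1.22 on the log2 scale. Both share exon bases with a gene on the opposite strand, 38.3% for XAF1 and 27.5% for HTRA2. BIRC5, which encodes survivin and acts in cell division, fell by 0.87 on the log2 scale.

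Of the 11 further genes of the receptor complex and cell death, FADD was the only one called. Of the 10 that passed the filter, 0 were higher by edgeR, by DESeq2 or at an unadjusted p under 0.05, and 1 was lower. CASP8 was nevertheless higher past the threshold in 3 of 15 other settings. FADD, the adaptor between death receptors and CASP8, fell by 0.34 on the log2 scale and shares 59.2% of its exon bases with a gene on the opposite strand. RIPK3, a kinase of necroptosis, held 0 reads in every library. TRADD had a log2 fold change of 0.11 (adjusted p = 0.446, edgeR quasi-likelihood test), and the ratio of TNFRSF1A to TRADD in TPM was 19.5 and 20.3 in shCon and 11.8 and 12.9 in shUBXN1.

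All 13 genes of ubiquitin linkage and its removal passed the filter, with 2 higher and 5 lower. TNFAIP3, an ubiquitin-editing enzyme that dampens NF-kappaB, rose by 1.41 on the log2 scale, from 13.9 and 13.2 CPM to 36.0 and 36.2 CPM. TNIP2, a partner of TNFAIP3, fell by 1.12. SPATA2, which links CYLD to the linear ubiquitin ligase, fell by 0.58, while CYLD rose. UBE2N, the conjugating enzyme for one kind of chain, fell by 0.52 and shares 41.6% of its exon bases with NUDT4 on the opposite strand. NUDT4 also held fewer reads in shUBXN1 (3868 and 3184 against 2598 and 2664).

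Of the 13 kinases and their partners, all of which passed the filter, 4 were higher and 5 lower. The largest changes were decreases, of TAB1 (-1.26), MAP3K5 (-1.11), IKBKG (-0.94) and MAPKAPK2 (-0.77) on the log2 scale. TAB1 activates the kinase MAP3K7, and IKBKG is the regulatory subunit of the I-kappaB kinase. The value of IKBKG is uncertain, because it has a pseudogene copy whose reads cannot be told apart with certainty.

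All 8 NF-kappaB subunits and inhibitors passed the filter, with 6 higher and 1 lower. The inhibitors NFKBIA, NFKBIB and NFKBIE rose by 0.69, 0.69 and 0.49 on the log2 scale, and the subunit NFKB2 by 0.35. NFKBIA had 43.996 and 46.1 CPM in shCon and 70.8 and 74.4 CPM in shUBXN1. The increase of NFKB2 was 0.27 without shCon replicate 1, with an adjusted p of 0.0741 by the same edgeR test. NFKB1 was the 1 that was lower, and it is named here after its values were seen, at -0.21 (adjusted p = 0.0358, edgeR quasi-likelihood test).

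The 9 other TRAFs and TRAF-binding proteins all passed the filter, with 3 higher and 4 lower. TRAIP fell by 0.87, TRAF4 by 0.62 and TRAF7 by 0.58, and TANK rose by 0.49 on the log2 scale. TRAF4 shares 10.7% and TRAF7 21.2% of its exon bases with a gene on the opposite strand. Of 3 genes of receptor shedding, ADAM17, the protease that releases TNF and its receptors from the cell surface, rose by 0.84 on the log2 scale, from 56.6 and 60.7 CPM to 101 and 109 CPM. It shares 10.3% of its exon bases with IAH1 on the opposite strand. ERAP1, which is known to bind TNFRSF1A and promote its shedding, fell by 0.68. ERAP1 shares 3.76% of its exon bases with CAST on the opposite strand, which also held fewer reads in shUBXN1 (5277 and 4560 against 3159 and 3291).

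**Figure D4:**
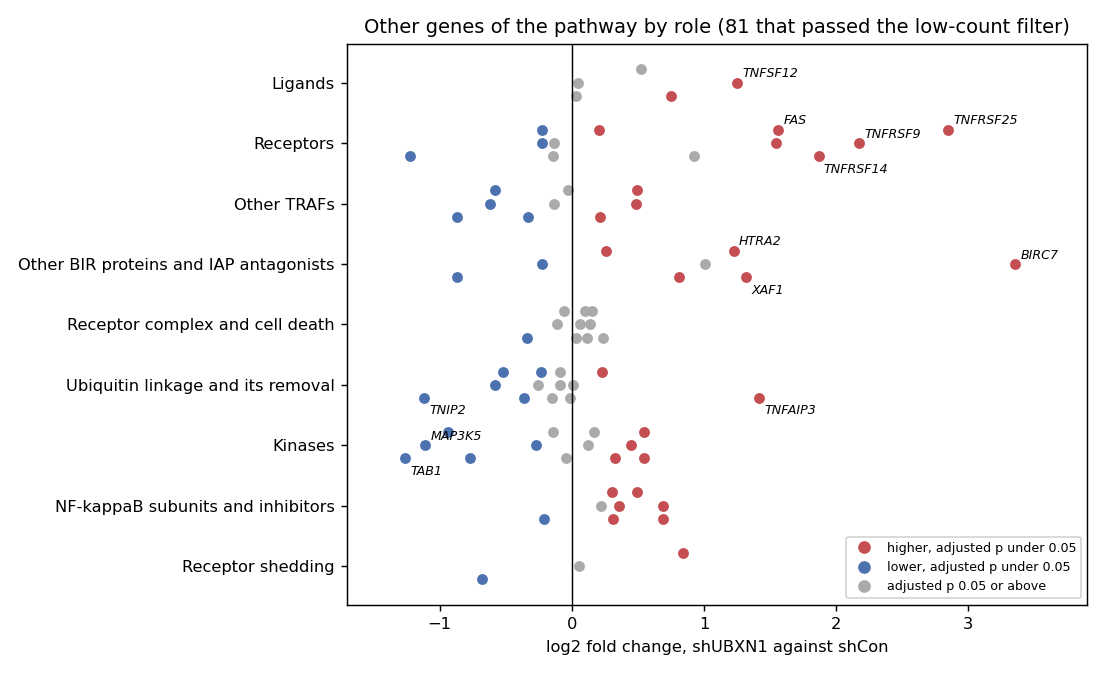
Log2 fold change of shUBXN1 against shCon for the 81 other pathway genes that passed the low-count filter, 1 point a gene, in rows by role and coloured by whether the adjusted p was under 0.05 and in which direction. Of the 10 points for the receptor complex and cell death, 1 was called, while BIRC7 lay farthest to the right at 3.35.

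Across 15 other settings for each of the 10 members, the direction and the call of BIRC2, BIRC3, XIAP, TRAF1, CYLD, CFLAR and TNFRSF1A were as above in all of them. The log2 fold change of BIRC3 ranged from 1.79 to 1.98, that of CYLD from 1.03 to 1.18 and that of TNFRSF1A from -0.64 to -0.49. TRAF1, with the fewest reads, ranged from 0.90 to 1.61.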

How the data were processed

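Messenger RNA of 4 libraries, 2 shCon and 2 shUBXN1, was sequenced. The authors deposited 1 table of expected counts per gene, with a gene length, and 62.4% to 64.6% of the non-zero values were exactly whole (tolerance 0). Per the labels, the submitters' processing notes name HISAT2 2.0.4, StringTie 1.3.0 and GRCh37, whereas the methods name GRCh38, and 99.7% of 61541 gene IDs were found in GENCODE release 44 (GRCh38), which gave symbols and coordinates. The counting tool, the annotation release and the use of strand are not given in the sources used here, so overlapping genes cannot be told apart. The methods call the control shRFP and name another library kit than the labels.

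Expected counts were rounded and tested with edgeR 4.0.16 (R 4.3.3) by the quasi-likelihood test with filterByExpr, TMM and Benjamini-Hochberg adjustment over 16863 genes, two-sided, a call being an adjusted p under 0.05. CPM used TMM-scaled library sizes, and TPM the deposited gene lengths (bases), with exon-union lengths as an alternative chosen after seeing the data. Promoter sequences came from RefSeq (GRCh38.p14), and all 10 members matched by symbol. The study's limma on TPM, DESeq2 1.42.0 and limma 3.58.1 were alternatives. Depth was 23373700 to 27380508 counts a library. The confidence intervals include the spread between these libraries, while limits on a count of 0 cover counting error only. Replicates differed by more than counting noise (chi-square per degree of freedom 3.75 for shCon and 8.34 for shUBXN1) and none was treated as a copy. The script was tested on simulated data in which few genes changed. In the real data 56.2% of genes were called, and scaling in that case was not tested. Members, lists and tests were chosen with earlier results of these data known. Named were the members, UBXN1, up to 4 called pathway genes a role with the largest change, and the 3 profiles nearest to the member that changed most.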

Additional observations from a re-analysis of the deposited data

How the results depend on the processing

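Of 673 log2 fold changes under other settings, 653 kept their direction and their side of the threshold, and 1 reversed, the log2 fold change of TRAF3, which was -0.07 as reported and 0.011 under total count scaling (neither passed the test, and the cause was not tested). Total count scaling put the median of all genes at 0.10. TRAF2 passed the threshold under total count scaling (0.28, adjusted p = 0.0323), with at least 10 counts in every library (0.22, adjusted p = 0.026) and with the replicate block, and the cause was not tested. Over all settings, 5 to 6 members were higher, 2 to 3 lower and 2 to 3 called at the fold threshold, and 21 to 33 pathway genes were higher and 16 to 26 lower. Leaving out 1 library at a time gave 21 to 31 higher and 16 to 24 lower pathway genes, and -2.14 to -1.93 for UBXN1. TNFSF13 missed the threshold with DESeq2 (adjusted p = 0.0679) and limma on log2(TPM + 1) (adjusted p = 0.0513).

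The labels number the replicates in both groups, but the deviations of same-numbered libraries from their group means had a correlation across genes of 0.0393 (0.161 over 10114 genes above 10 CPM), with only 2 pairs, so the numbers were not taken as pairs. With the replicate block, 5000 genes were higher and 5023 lower, against 4727 and 4751, and TRAF2 stood at 0.19 (adjusted p = 0.0292). The block changed no other call among the members. Depth limits genes with few reads, among them TNF, TNFRSF25 and TNFRSF9, and the pseudocount of 1 lowers such values on the log2(TPM + 1) scale, those of TRAF1, FAS and XAF1 included. Levels and ratios per length moved with exon-union lengths, as given beside them.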
